A study of Mus musculus with 8 samples.

Results

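The plasminogen activators Plat and Plau, the urokinase receptor Plaur, and the serpin inhibitors Serpine2 and Serpina5 were described in granulosa cells of mice lacking the progesterone receptor isoform PGR-A and of wild-type mice. These genes were picked by symbol, and all 5 were found among the 51886 gene symbols of the expression table. The data are 8 mRNA sequencing libraries, 4 from knockout animals of the PGR-A KO strain (PGR-A KO) and 4 from wild-type animals (WT). All mice were 21 to 27 days old and had received 5 IU eCG, a hormone that makes follicles grow, and 46 h later 5 IU hCG, which triggers ovulation. Granulosa cells were taken 8 h after hCG, and each library pools the cells of 2 to 3 mice. How PGR-A was deleted, and whether the WT mice were littermates, is not given in the sources used here. P-values measure the spread between these pools.

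Plasminogen activators are secreted serine proteases that cut plasminogen into plasmin, a broad protease that dissolves fibrin, breaks down matrix and activates other proteases. Plat encodes the tissue-type activator and Plau the urokinase type, which Plaur anchors at the cell surface. Serpins such as the Serpine2 product, protease nexin 1, trap these proteases irreversibly. In the ovary the system is known for its rise before follicle rupture. Urokinase is the main activator of granulosa cells in the mouse and the tissue type in the rat, and mouse oocytes store Plat mRNA that is translated when meiosis resumes.

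Both activators belong to the same protease fold, and the coding bases around the active-site serine are shown because they hold this catalytic residue. They were read from GENCODE M21 transcripts on mm10, lie within exon 14 of Plat at chr8:22781948-22781983 and exon 11 of Plau at chr14:20842274-20842309, both on the plus strand, and carry the serine codon in capitals.
Plat: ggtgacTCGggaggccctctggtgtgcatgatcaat
Plau: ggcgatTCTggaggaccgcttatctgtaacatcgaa
Over these 36 bases the genes were identical at 23 positions (63.9%). Of all stretches of 31 bases in the annotated transcripts, 0.128% in Plat, 0.466% in Plau, 0.187% in Plaur, 1.11% in Serpine2 and 0% in Serpina5 also occurred in another gene. No other annotated gene overlapped any of the 5 on either strand.

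Promoters are shown for the 3 of the 5 genes that had an entry in the RefSeq table, Serpine2, Plaur and Serpina5, which include the most and the least abundant of the 5 genes. The sequences, from RefSeq on GRCm38.p6 (mm10), are the 250 bases before the start site. They are chr1:79858666-79858915 on the minus strand for Serpine2, chr7:24462233-24462482 on the plus strand for Plaur and chr12:104100863-104101112 on the plus strand for Serpina5. Capitals mark matches on either strand to the GC box GGGCGG, some of which overlap, and to the AP-1 motif TGACTCA. The RefSeq start site of Serpine2 lies inside the span that GENCODE gives the gene.
Serpine2: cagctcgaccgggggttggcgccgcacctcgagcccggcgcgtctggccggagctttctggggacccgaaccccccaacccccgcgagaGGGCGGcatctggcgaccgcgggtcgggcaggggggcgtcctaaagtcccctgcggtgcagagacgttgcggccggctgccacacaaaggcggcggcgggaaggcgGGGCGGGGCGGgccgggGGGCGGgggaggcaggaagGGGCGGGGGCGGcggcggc
Plaur: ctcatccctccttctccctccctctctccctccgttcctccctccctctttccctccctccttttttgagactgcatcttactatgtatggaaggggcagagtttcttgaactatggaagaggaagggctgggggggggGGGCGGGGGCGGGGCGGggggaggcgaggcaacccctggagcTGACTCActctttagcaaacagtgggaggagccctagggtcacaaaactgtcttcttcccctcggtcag
Serpina5: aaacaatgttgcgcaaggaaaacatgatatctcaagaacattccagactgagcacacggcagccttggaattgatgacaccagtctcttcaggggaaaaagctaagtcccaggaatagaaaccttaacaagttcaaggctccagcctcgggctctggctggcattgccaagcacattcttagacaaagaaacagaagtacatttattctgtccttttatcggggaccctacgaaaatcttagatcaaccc
The Serpine2 window had 6 GC boxes and a GC content of 78.8%, the Plaur window 3 and 59.6%, and the Serpina5 window 0 and 44.8%. An AP-1 match was found in the Plaur window, beginning 69 bases before the start site, and in neither serpin window. Of 32851 RefSeq windows of the same length, 32.7% held a GC box and 4.46% the AP-1 motif. These matches describe letters only.

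Libraries were checked before the genes were compared. Their values on the log2 scale correlated at 0.970 to 0.991 across genes, and no columns were identical. The largest axis of difference, with 34.9% of the variance, did not follow the genotypes. Its positive side held PGR-A KO replicates 1, 2 and 4 together with WT replicate 1, and its negative side held PGR-A KO replicate 3 beside WT replicates 2, 3 and 4. WT replicate 2 lay nearest to 0, with a score of -3.55, while the others on that side scored -25.8 to -18.5. The third knockout library and the first WT library thus lay with libraries of the other genotype. Some results, among them those of Plau, Plaur and Plat, are therefore also given without them. Pgr, which has a single value per library with no split by isoform, averaged 2.96 ± 0.658 TPM in PGR-A KO and 1.15 ± 0.395 TPM in WT (SD, n = 4 each). The groups did not overlap, as in 3.42% of all genes tested, with at least 2.01 TPM in PGR-A KO and at most 1.56 TPM in WT. Pgr did not pass the limma threshold, as 0 genes passed it with a higher level in PGR-A KO. The Pgr value neither measures PGR-A nor checks the labels. All 8 granulosa markers were present in every library, summing to 3670.0 to 4944 TPM in PGR-A KO and 4074 to 6085 TPM in WT. All 8 had lower means in PGR-A KO (median log2 change -0.21), and 0 passed the limma threshold.

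Levels are given in TPM, a library's share of transcripts corrected for gene length and scaled to the same total in each library. Serpine2 was by far the most abundant of the 5 genes, with a mean over the 8 libraries of 1701 TPM, and ranked 43rd of 14472 genes tested. Plau followed at 221 TPM, Plat at 77.3 TPM, Plaur at 8.38 TPM and Serpina5 at 1.86 TPM. Serpine2, Plau, Plat and Plaur kept this order in all 8 libraries, with no overlap between neighbours. Plaur exceeded Serpina5 in 7 of 8 libraries, the exception being WT replicate 2.

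No difference between PGR-A KO and WT was detected for any of the 5 genes. With limma on log2(TPM + 1), 0 of the 5 passed an adjusted p of 0.05 over all genes, where 0.0138% of the 14472 genes passed (2 genes, both lower in PGR-A KO). At an unadjusted p under 0.05 there were likewise 0 of 5, against 6.31% of all genes (0.974% higher and 5.33% lower in PGR-A KO). That unadjusted count depended on the scaling, the model and the libraries kept, as given below. The mean was higher in PGR-A KO for 4 of the 5 genes and lower for Serpina5, against 42.6% of all genes with a higher and 57.4% with a lower mean. The groups overlapped in all 5, whereas they did not overlap in 3.42% of all genes. The median log2 change of the 5 genes was 0.28 and that of all genes -0.023. In such bulk samples, fewer cells of a type and less RNA per cell cannot be told apart.

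**Figure D1:**
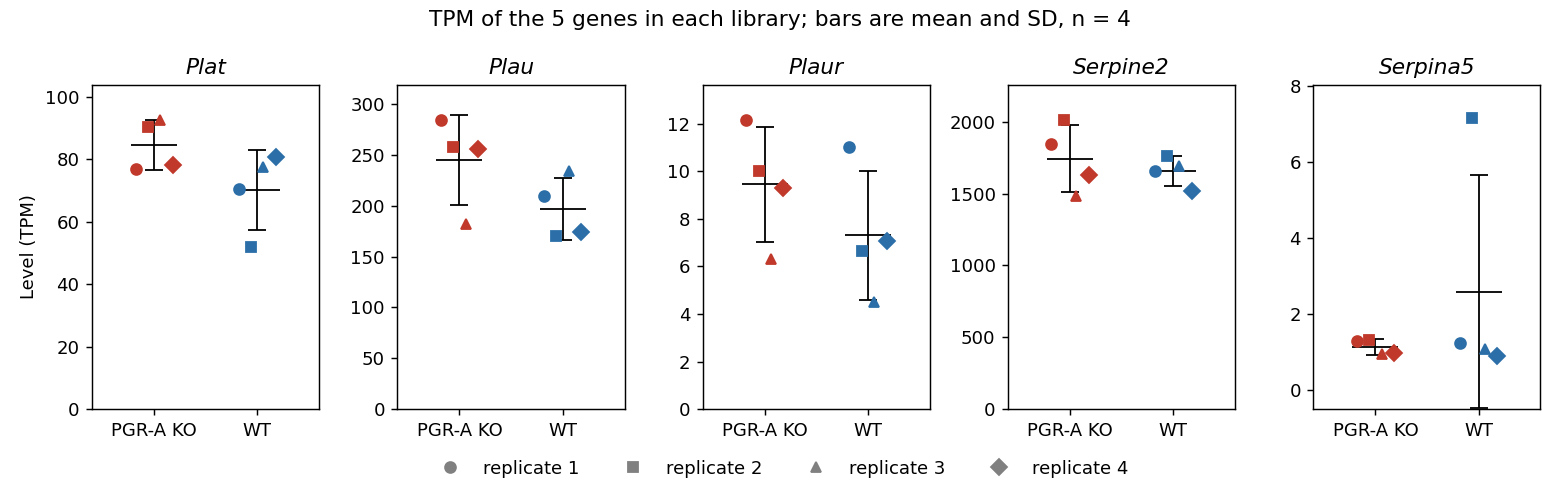
Level in TPM (vertical axes, each panel with its own scale) of Plat, Plau, Plaur, Serpine2 and Serpina5 in the PGR-A KO libraries (red, left) and the WT libraries (blue, right), 1 point a library, with mean and SD (n = 4). The groups overlap in every panel, and WT replicate 2 stands at 7.18 TPM in Serpina5 above all other libraries.

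Plau (ENSMUSG00000021822.3, chromosome 14, 20836660 to 20843385, plus strand) encodes urokinase. It stood at 285, 258, 182 and 256 TPM in PGR-A KO replicates 1 to 4, and at 209, 171, 234 and 174 TPM in WT replicates 1 to 4. PGR-A KO replicates 1, 2 and 4 were the highest libraries, while PGR-A KO replicate 3 lay among the WT libraries. The means were 245 ± 44.3 TPM in PGR-A KO and 197 ± 30.3 TPM in WT (SD, n = 4 each), a ratio of 1.24. The log2 change was 0.31 (95% interval -0.040 to 0.65, limma adjusted p = 0.795), and the exact 2-sided permutation p was 0.143 (n = 4 each), where this design allows no p below 0.0286.

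Plaur (ENSMUSG00000046223.10, chromosome 7, 24462484 to 24475968, plus strand) encodes the receptor that holds urokinase at the cell surface. Its level was 12.2, 10.03, 6.30 and 9.31 TPM in PGR-A KO replicates 1 to 4, and 11.0, 6.64, 4.52 and 7.07 TPM in WT replicates 1 to 4. PGR-A KO replicate 3 was below the other PGR-A KO libraries and WT replicate 1 above the other WT libraries, so the groups overlapped at both ends. The means were 9.45 ± 2.43 TPM in PGR-A KO and 7.31 ± 2.71 TPM in WT (SD, n = 4 each). The log2 change was 0.35 (95% interval -0.20 to 0.91, limma adjusted p = 0.845; exact permutation p = 0.314). Of all genes tested, 92.8% varied less than Plaur within the groups.

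The order of Plaur followed the largest axis of difference among the libraries, which was computed from all genes tested, Plaur included. The 4 libraries on its positive side held the 4 highest Plaur values, 9.31 to 12.2 TPM, and those on its negative side the 4 lowest, 4.52 to 7.07 TPM. Within a side the order could differ, as PGR-A KO replicate 3, lowest on the axis, had more Plaur than WT replicate 3. For Plau the split was looser, since WT replicate 3, on the negative side, exceeded WT replicate 1, on the positive side. With PGR-A KO replicate 3 and WT replicate 1 both left out, Plau stood at 266 ± 16.1 TPM in PGR-A KO and 193 ± 35.7 TPM in WT (SD, n = 3 each). Plaur then stood at 10.5 ± 1.49 TPM in PGR-A KO and 6.08 ± 1.36 TPM in WT (SD, n = 3 each). In both genes the groups no longer overlapped, which with these 6 libraries was also so for 31.2% of the 14114 genes tested (14.6% with PGR-A KO higher).

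With those 6 libraries the log2 change of Plaur was 0.71 (SE 0.17, limma adjusted p = 0.0437), and that of Plau 0.48 (SE 0.12, limma adjusted p = 0.0584). Over all alternatives tried, the limma adjusted p of Plaur ranged from 0.0437 to 1.00 and that of Plau from 0.0584 to 1.00. Thus 1 of the 5 genes passed, against 8.01% of all genes in that fit (3.84% higher in PGR-A KO). The libraries left out are those whose values lie with the other genotype, so this fit does not measure an effect of genotype.

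**Figure D2:**
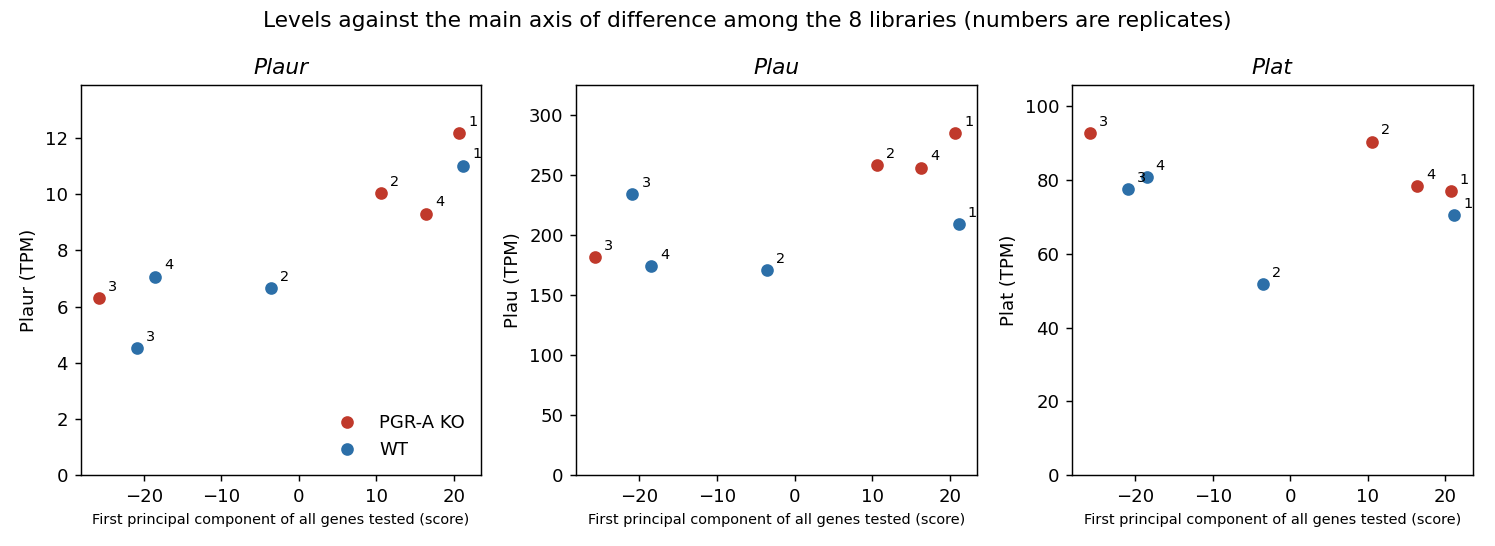
Level in TPM (vertical axes) of Plaur, Plau and Plat against the score of each library on the first principal component of all genes tested (horizontal axes), with PGR-A KO in red and WT in blue and replicate numbers beside the points. Plaur is at 9.31 TPM or above in the 4 libraries with positive scores and at 7.07 TPM or below in the others, whereas Plat shows no such split.

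Plat (ENSMUSG00000031538.6, chromosome 8, 22757727 to 22782844, plus strand) encodes the tissue-type activator. It stood at 77.0, 90.3, 92.7 and 78.2 TPM in PGR-A KO replicates 1 to 4, and at 70.5, 51.8, 77.5 and 80.7 TPM in WT replicates 1 to 4. PGR-A KO replicates 2 and 3 were the highest and WT replicate 2 the lowest. The means were 84.5 ± 8.11 TPM in PGR-A KO and 70.2 ± 12.9 TPM in WT (SD, n = 4 each). The log2 change was 0.28 (95% interval -0.031 to 0.59, limma adjusted p = 0.795; exact permutation p = 0.143). When the third knockout and the first WT library were left out the groups still overlapped, with a log2 change of 0.24 (limma adjusted p = 0.412).

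The order of the Plat levels resembled in part that of oocyte markers. The gene with the profile most like Plat over the 8 libraries was Ybx2, which encodes a germ-cell mRNA-binding protein. Likeness was the mean absolute difference between standardised profiles, 0.18 SD units for Ybx2 against a median of 1.09 over 10259 genes. Next were Rimkla at 0.19 and Cpne9, a copine, at 0.20. Ybx2 stood at 26.0, 33.5, 39.2 and 25.4 TPM in PGR-A KO replicates 1 to 4, and at 24.0, 14.4, 30.8 and 30.4 TPM in WT replicates 1 to 4. Like Plat, it was highest in PGR-A KO replicate 3 and lowest in WT replicate 2.

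Oocyte RNA was present in every library. The 10 oocyte markers, among them the growth factor Gdf9 and the zona pellucida genes Zp1, Zp2 and Zp3, summed to 892, 1183, 1457 and 816 TPM in PGR-A KO replicates 1 to 4. In WT replicates 1 to 4 they summed to 874, 596, 1115 and 1085 TPM. PGR-A KO replicates 2 and 3, the highest in Plat, were among the 3 libraries highest in oocyte markers, and WT replicate 2 was lowest in both. Other libraries did not keep this order. PGR-A KO replicate 4 had a lower oocyte sum than WT replicates 1 and 3 but more Plat, at 78.2 TPM against 70.5 and 77.5 TPM. All 10 had higher means in PGR-A KO, 0 passed the test, and none was at 0 in any library. Gdf9 averaged 240 ± 62.2 TPM in PGR-A KO and 205 ± 55.3 TPM in WT (SD, n = 4 each). Padi6, an oocyte cytoplasmic enzyme gene, was the marker most like Plat, ranking 17th of the 10259 genes at 0.24 SD units, and Oosp1, which encodes an oocyte-secreted protein, the least at 0.50. The part of oocyte RNA in the level of Plat was not tested.

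**Figure D3:**
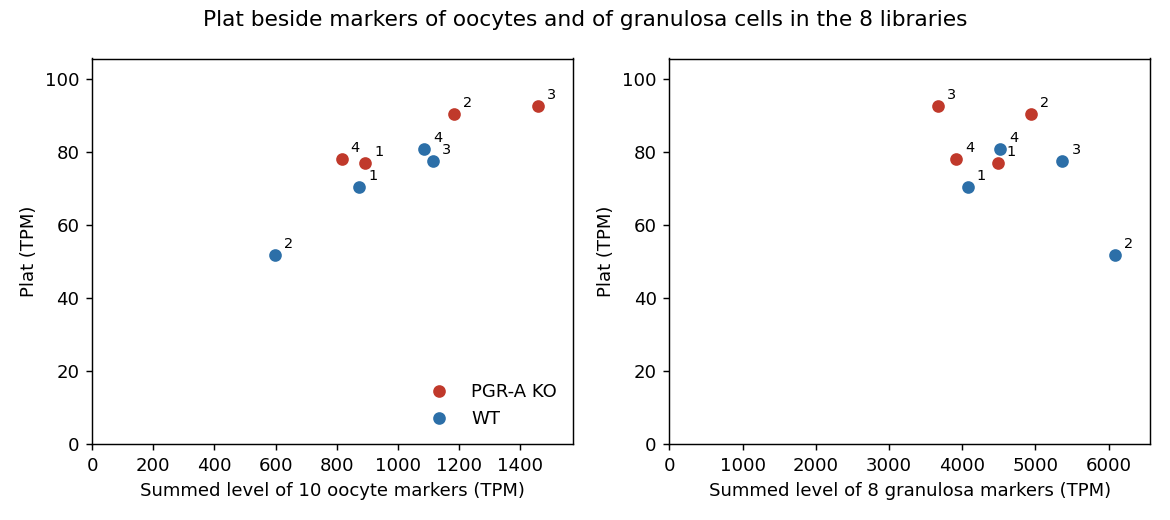
Plat level in TPM (vertical axes) against the summed TPM of 10 oocyte markers (left) and of 8 granulosa markers (right) in the 8 libraries, PGR-A KO in red and WT in blue, with replicate numbers. WT replicate 2, with the lowest oocyte sum (596 TPM) and the highest granulosa sum (6085 TPM), has the lowest Plat value (51.8 TPM).

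Serpine2 (ENSMUSG00000026249.10, chromosome 1, 79794197 to 79861180, minus strand) encodes protease nexin 1, an inhibitor of thrombin, both plasminogen activators and plasmin. It stood at 1843, 2015, 1486 and 1629.6 TPM in PGR-A KO replicates 1 to 4, and at 1658, 1764, 1695 and 1516 TPM in WT replicates 1 to 4. PGR-A KO replicates 3 and 2 were the lowest and highest libraries of all, so the WT libraries lay within the knockout range. The means were 1743 ± 233 TPM in PGR-A KO and 1658 ± 104 TPM in WT (SD, n = 4 each). Its log2 change was 0.064 (95% interval -0.18 to 0.31, limma adjusted p = 0.947; exact permutation p = 0.571). It was the steadiest of the 5 genes, with the highest library 1.36 times the lowest, and without PGR-A KO replicate 2 its log2 change turned to -0.0083.

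Within each library the inhibitor exceeded both activators together. The ratio of Serpine2 to the summed TPM of Plat and Plau was 5.09, 5.78, 5.42 and 4.88 in PGR-A KO replicates 1 to 4, and 5.93, 7.93, 5.44 and 5.95 in WT replicates 1 to 4. WT replicate 2, the lowest in Plat and in Plau, was the highest in this ratio. The mean ratio was 5.29 ± 0.395 in PGR-A KO and 6.31 ± 1.10 in WT (SD, n = 4 each), and the groups overlapped. Plau exceeded Plat by a factor of 2.95 ± 0.743 in PGR-A KO and 2.86 ± 0.489 in WT (SD, n = 4 each). Plau exceeded its receptor Plaur by a factor of 26.4 ± 2.36 in PGR-A KO and 30.3 ± 14.6 in WT (SD, n = 4 each), with WT replicate 3 at 51.8. These ratios describe mRNA and were not tested.

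Serpina5 (ENSMUSG00000041550.4, chromosome 12, 104101113 to 104106137, plus strand) encodes protein C inhibitor, which also inhibits urokinase. It stood at 1.29, 1.32, 0.935 and 0.964 TPM in PGR-A KO replicates 1 to 4, and at 1.22, 7.18, 1.07 and 0.875 TPM in WT replicates 1 to 4. A single library, WT replicate 2, stood at 6.80 times the mean of the other WT libraries. The means were 1.13 ± 0.205 TPM in PGR-A KO and 2.59 ± 3.06 TPM in WT (SD, n = 4 each). Its log2 change was -0.45 (95% interval -1.40 to 0.50, limma adjusted p = 0.895; exact permutation p = 0.686).

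Without WT replicate 2, Serpina5 averaged 1.13 ± 0.205 TPM in PGR-A KO (SD, n = 4) and 1.06 ± 0.173 TPM in WT (SD, n = 3), and the log2 change turned to 0.047. WT replicate 2 also stood apart in the theca list, whose 5 markers summed to 96.5 to 115 TPM in PGR-A KO and to 86.0 to 250 TPM in WT, the highest sum being that of WT replicate 2. Of the 5, 2 had higher and 3 lower means in the knockout, 0 passed the limma threshold, and none was at 0 in any library. In Gli1 the groups did not overlap, as in 3.42% of all genes, with a log2 change of 0.33 (limma adjusted p = 0.752; exact permutation p = 0.0286). Most of the sum in WT replicate 2 was Aldh1a1, at 212 TPM. Aldh1a1, Cyp17a1 (15.2 TPM) and Insl3 (3.22 TPM) were higher there than in any other library, whereas Gli1 (0.810 TPM) was lower than in any other library and Ptch1 (18.3 TPM) lower than in any other WT library, so the 5 markers did not move together. WT replicate 2 was also the highest library in the granulosa markers Inha, Inhba (611 TPM), Fshr, Cyp19a1, Nr5a2 and Lhcgr, though not in Foxl2 or Amhr2. Its summed endothelial markers, at 41.2 TPM, were the highest too. Singly this held for Cdh5, Tek and Emcn, though not for Pecam1, Kdr, Erg or Vwf. The part of theca, granulosa or endothelial cells in the Serpina5 value was not tested.

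The other members had the following nearest profiles among the 10259 genes. For Plau they were Zdhhc23 (0.20 SD units), the amino acid transporter gene Slc7a1 (0.21) and the EGF-like factor gene Areg (0.22), and for Plaur Porcn (0.17), Tsc22d3 (0.17) and Vcpkmt (0.18). Tsc22d3 stood at 331, 293, 204 and 291 TPM in PGR-A KO replicates 1 to 4, and at 358, 217, 174 and 221 TPM in WT replicates 1 to 4. It thus repeated the Plaur order in placing PGR-A KO replicate 3 and WT replicate 3 lowest. For Serpine2 they were Faap24 (0.15), Peg13 (0.21) and Atf6 (0.23). For Serpina5, listed among 10260 genes, they were Dsel (0.12), Elf1 (0.13) and Ccni (0.13), all highest in WT replicate 2. Among the 5 members the closest pairs were Plau with Serpine2 (0.63) and Plau with Plaur (0.68), and the farthest Plat with Serpina5 (1.20).

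Most of the rest of the plasminogen system was detected, but its substrate gene barely so. Of 46 other genes listed, all 46 were in the table and 33 passed the filter on low values. Of these 33, 0 passed the limma threshold over all genes and 3 had an unadjusted p under 0.05, against 6.31% of all genes. The mean was higher in the knockout for 15 and lower for 18, and the sign changed for 5 of the 33 with TMM factors and for 4 with quantile normalization. Plg, the plasminogen gene, which is expressed mainly in liver, stood at no more than 0.091 TPM in any PGR-A KO library and 0.042 TPM in any WT library.

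Genes listed as surface receptors for plasminogen were abundant as mRNA, Plgrkt the least so. Of 4 tested, the knockout mean was higher for 1 and lower for 3 (median log2 change -0.075), and 0 passed. S100a10, whose product binds plasminogen with annexin A2, had 934 ± 188 TPM in PGR-A KO and 1002 ± 283 TPM in WT (SD, n = 4 each). Plgrkt, a plasminogen receptor gene, had 30.8 ± 4.29 TPM in PGR-A KO and 37.5 ± 5.26 TPM in WT (SD, n = 4 each), with a log2 change of -0.27 (limma adjusted p = 0.785).

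Among 5 other inhibitors tested, the knockout mean was higher for 4 and lower for 1 (median log2 change 0.15), and 0 passed. The most abundant was Serpinb6a, an intracellular serpin gene, at 333, 320.2, 291 and 322 TPM in PGR-A KO replicates 1 to 4, and 297, 273, 289 and 278 TPM in WT replicates 1 to 4. Its groups overlapped through PGR-A KO replicate 3 and WT replicate 1 alone. A log2 change of 0.15 (SE 0.066, limma adjusted p = 0.783; exact permutation p = 0.0571) resulted.

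Of 8 tested cofactors and clearance receptors, the knockout mean was higher for 1 and lower for 7 (median log2 change -0.038), and 0 passed. Lrpap1, the chaperone of the LRP1 receptor that clears activator and inhibitor complexes, had 72.2, 77.9, 75.5 and 68.1 TPM in PGR-A KO replicates 1 to 4, and 83.4, 83.1, 89.0 and 83.5 TPM in WT replicates 1 to 4. Its groups did not overlap, as in 3.42% of all genes. The difference was -0.21 on the log2 scale (SE 0.064, limma adjusted p = 0.721), and its exact permutation p of 0.0286 (n = 4 each) was the smallest this design can give. Itgb1, an integrin subunit gene and the most abundant of the list, had 252 ± 17.2 TPM in PGR-A KO and 256 ± 18.3 TPM in WT (SD, n = 4 each).

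Of 11 tested genes of thrombin, protein C and contact proteases with their receptors and inhibitors, the knockout mean was higher for 7 and lower for 4 (median log2 change 0.059), and 0 passed. F3, which encodes tissue factor, had 81.2 ± 28.8 TPM in PGR-A KO and 65.4 ± 24.3 TPM in WT (SD, n = 4 each). Spint2, which encodes a Kunitz-type protease inhibitor, had 49.0 ± 11.6 TPM in PGR-A KO and 62.2 ± 9.05 TPM in WT (SD, n = 4 each), with a log2 change of -0.35 (limma adjusted p = 0.789).

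Of 5 tested genes of growth factors and a receptor linked to this system, the knockout mean was higher for 2 and lower for 3 (median log2 change -0.012), and 0 passed. Pdgfc, whose product is activated by the tissue-type activator, had 29.1, 31.4, 34.1 and 31.02 TPM in PGR-A KO replicates 1 to 4, and 39.3, 34.8, 36.9 and 34.9 TPM in WT replicates 1 to 4. Here too the groups did not overlap. The difference was -0.21 on the log2 scale (SE 0.074, limma adjusted p = 0.774; exact permutation p = 0.0286).

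**Figure D4:**
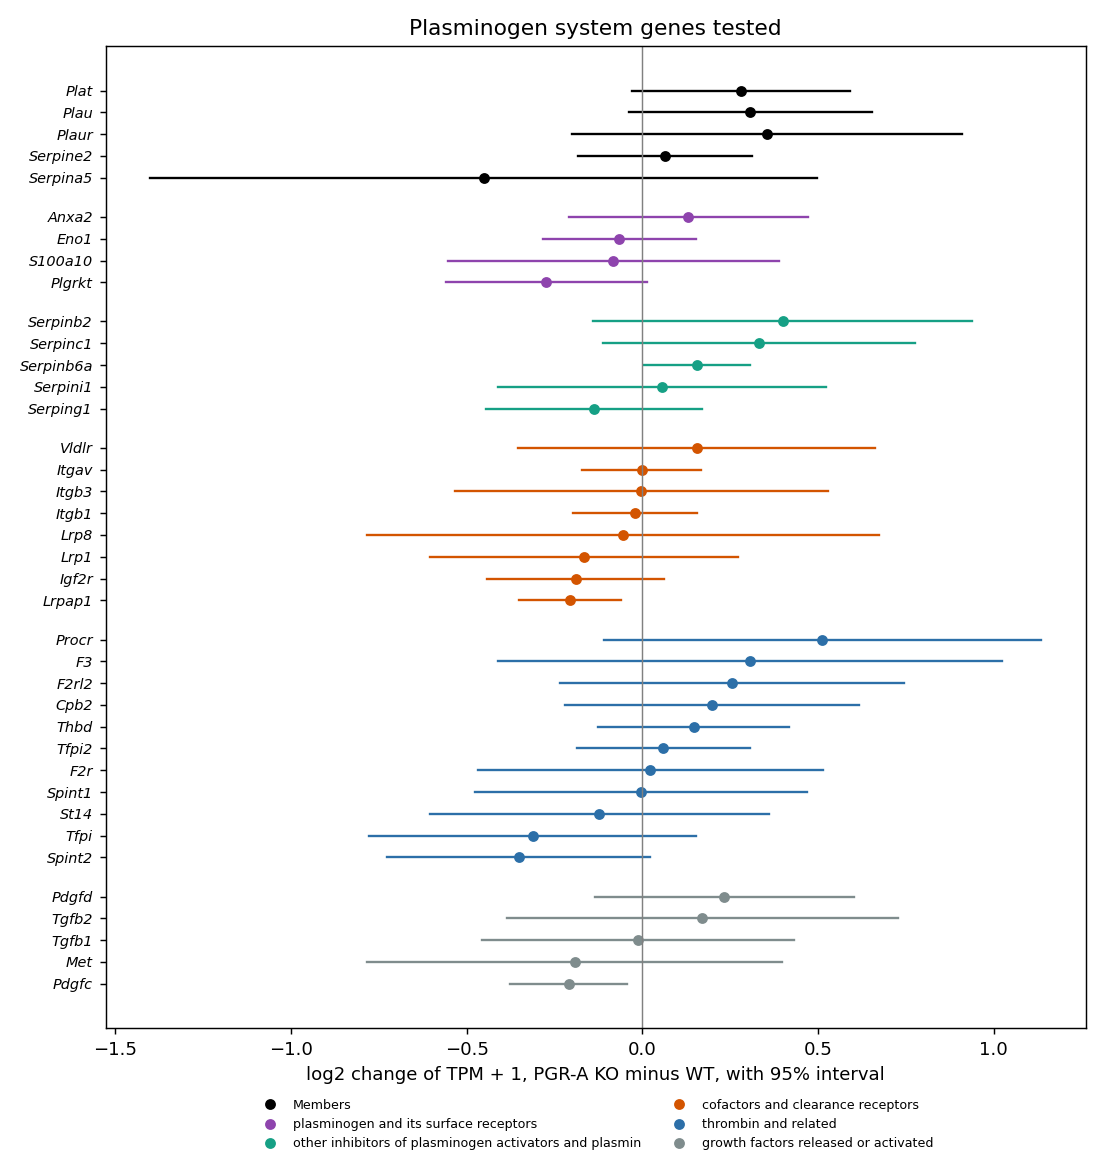
Log2 change of TPM + 1, PGR-A KO minus WT (horizontal axis), with 95% intervals for the 5 members and the 33 other genes tested, coloured by list. The intervals of Serpinb6a, Lrpap1 and Pdgfc lie off 0 before adjustment, and no gene passed the threshold over all genes.

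With PGR-A KO replicate 3 and WT replicate 1 both left out, 8 of 31 tested genes of these lists passed, against 8.01% of all genes in that fit. Of the 8, 5 were higher in PGR-A KO (Itgb3, Lrp8, Vldlr, F2r and Procr) and 3 lower (Plgrkt, Tfpi and Spint2). Itgb3 and Lrp8 changed sign against the fit of all 8 libraries. As with Plaur, this depends on which libraries were left out.

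**Figure D5:**
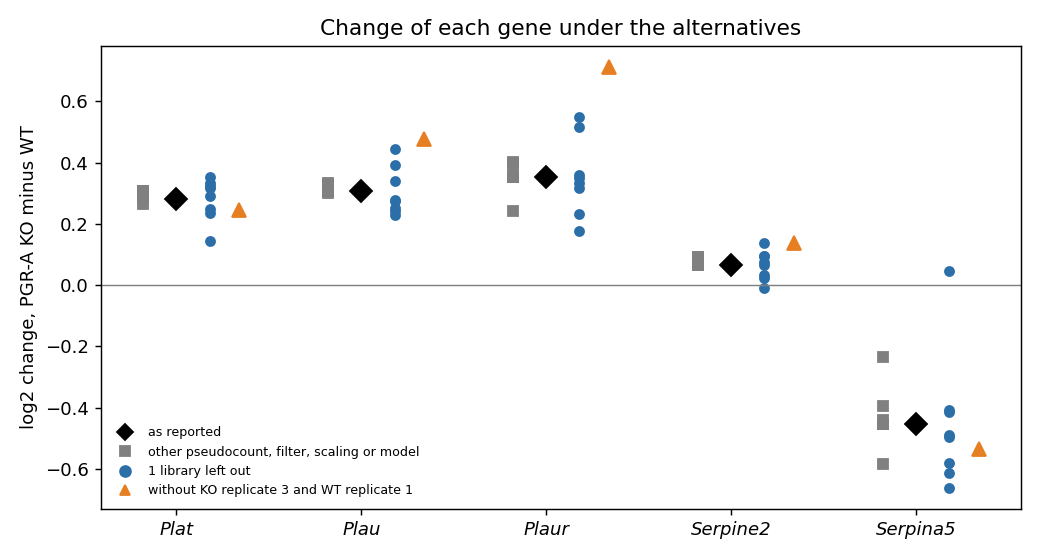
Log2 change, PGR-A KO minus WT (vertical axis), of each of the 5 genes in the fit reported (black), with another pseudocount, filter, scaling or variance model or a replicate block (grey), with 1 library left out (blue) and with both PGR-A KO replicate 3 and WT replicate 1 left out (orange). Plau and Plaur stay above 0 throughout and reach 0.48 and 0.71 in that last setting, whereas Serpina5 crosses 0 without WT replicate 2.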

How the data were processed

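mRNA of granulosa cells was sequenced in 4 PGR-A KO and 4 WT libraries, as paired-end reads of a stranded library per the labels' protocols. The deposited table holds TPM per gene symbol, with columns that sum to 994519 to 997022. Tools listed in the submitters' processing notes are FastQC, Salmon, limma and edgeR, with the build mm10; they carry no versions. TPM keeps no depth, so no counting interval can be set on a value.

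For the tests, limma 3.58.1 (R 4.3.3, trend on, no covariate) was run on log2(TPM + 1) in the 14472 genes that reached 1 TPM in 4 or more of the 8 libraries, as all 5 members did. Fold changes are PGR-A KO minus WT, and those of low genes are understated. P-values are 2-sided, adjusted by Benjamini-Hochberg over all genes. Exact permutation tests used all 70 assignments of the libraries. The steps were tested on simulated data.

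The members and lists were chosen with earlier results of these data known. Besides the members, the genes with the highest level and the lowest p of each list, the most abundant marker of each cell type, and the 3 genes of at least 5 TPM with the profile most like each member were named. Plg, Inhba, Fshr, Cyp19a1, Nr5a2, Lhcgr, Foxl2, Amhr2, Zp1, Zp2, Zp3, Padi6 and Oosp1 were named after their values were seen. So were Cyp17a1, Insl3, Gli1, Ptch1 and the genes called with 6 libraries. The pair of libraries left out together was picked by its values. Positions are from GENCODE M21. Results for 1 listed gene are not reported here.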

Additional observations from a re-analysis of the deposited data

Results flagged for a closer look

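Among the 78 sets of 4 values looked at, 10 had a highest or lowest library set well apart from the others. About 3.9 such sets (1 in 20) would come up by chance if the sets were independent and unselected. They were not, since genes were named for their profile or p, so the 10 cannot be judged against that number. In WT, replicate 2 stood above the other WT libraries in Serpina5 (7.18 TPM), Aldh1a1 (212 TPM), Dsel (28.8 TPM) and Ccni (209 TPM); Dsel and Ccni were named for following Serpina5. PGR-A KO replicate 3 stood above the other PGR-A KO libraries in Plg (0.0911 TPM), Lyz2 (70.3 TPM), Krt8 (30.5 TPM) and Cpne9 (10.8 TPM), and below them in Vcpkmt (55.5 TPM). WT replicate 3 stood above the other WT libraries in Lrpap1 (89.0 TPM). Cpne9 was named for following Plat, Vcpkmt for following Plaur and Lrpap1 for the lowest p of its list. Lyz2 is a macrophage and Krt8 a surface epithelium marker.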

How the results depend on the processing

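Plat, Plau and Plaur kept a higher mean in PGR-A KO in all 17 alternatives, with log2 changes of 0.14 to 0.35, 0.23 to 0.48 and 0.18 to 0.71. Plaur passed the threshold in 1 of them, with PGR-A KO replicate 3 and WT replicate 1 both left out (0.71, limma adjusted p = 0.0437), and otherwise ranged from 0.18 to 0.55 with 1 library left out. Serpine2 ranged from -0.0083 (without PGR-A KO replicate 2) to 0.14 with 1 library left out, and Serpina5 from -0.66 to 0.047 (without WT replicate 2). A minimum of 5 TPM removed Serpina5. Of the other genes, Itgb1 turned to 0.0062 with TMM factors and 0.037 without both libraries, and ranged from -0.067 to 0.022 with 1 library left out. S100a10 turned to 0.22 without both libraries and ranged from -0.22 to 0.089 with 1 left out. The number of genes called, 2 as reported, was 1 at pseudocount 5, 3 at pseudocount 0.1, 0 to 6 with 1 library left out and 1131 without both. At an unadjusted p under 0.05, 141 genes were higher and 772 lower, which became 308 and 580 with TMM factors and 385 and 525 with quantile normalization. The limma unadjusted p was 0.0378 for Plat and 0.0429 for Plau with TMM factors. For Plau it was 0.0331 with quantile normalization, and for Plaur 0.0107 with a replicate block. The limma adjusted p of these was at least 0.394. Unadjusted p was under 0.05 in 2 of the 17 alternatives for Plat, 5 for Plau, 3 for Plaur and 0 for either serpin.

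Same-numbered libraries deviated together with correlations of 0.36, -0.11, 0.39 and -0.29, and 3 of 8 correlated best with their own number. These values differ in sign, so they do not decide whether replicate numbers pair the libraries. Adding a replicate block lowered the SE of the log2 change for Plat, Plaur, Serpine2 and Serpina5, in Plaur from 0.25 to 0.10. For Plau the SE rose from 0.15 to 0.16. With a replicate block 2 genes passed, and the log2 change of Plaur, 0.35, had an adjusted p of 0.394. The cause of these shifts was not tested. TPM without counts limits what can be said of low genes such as Serpina5.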

Other observations

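Markers of other cells were present at levels that differed between libraries. The 5 erythroid markers, led by the globin gene Hbb-bs, summed to 3458 to 5919 TPM in PGR-A KO and 1634 to 10744 TPM in WT. Smooth muscle and pericyte markers, led by Acta2, summed to 58.6 to 88.3 TPM in PGR-A KO and 58.8 to 98.8 TPM in WT, and fibroblast markers, led by Col3a1, to 88.8 to 127 TPM in PGR-A KO and 89.3 to 108 TPM in WT. Surface epithelium markers, led by Krt8, summed to 79.2 to 83.5 TPM in PGR-A KO and 74.8 to 109 TPM in WT. Endothelial markers, led by Cdh5, reached 15.7 to 27.7 TPM in PGR-A KO and 20.4 to 41.2 TPM in WT, and neutrophil markers, led by Camp, 10.1 to 28.7 TPM in PGR-A KO and 7.42 to 29.5 TPM in WT. Macrophage markers, led by Lyz2, summed to 63.0, 57.3, 111 and 53.4 TPM in PGR-A KO replicates 1 to 4, and 83.2, 93.5, 90.6 and 112 TPM in WT replicates 1 to 4, so that replicates 1, 2 and 4 of PGR-A KO lay below every WT library and replicate 3 did not. Of these 8 markers, 7 had a lower mean in PGR-A KO (median log2 change -0.36), 2 of them at an unadjusted p under 0.05, against 5.33% of all genes lower at that threshold. In each of these lists the groups overlapped and 0 markers passed the limma threshold. Inha, the most abundant granulosa marker, averaged 3552 ± 515 TPM in PGR-A KO and 4063 ± 549 TPM in WT (SD, n = 4 each).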
